A study of Homo sapiens with 6 samples.

Results

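Cytosolic ribosomal protein (RP) genes encode the proteins of the ribosome that works in the cytoplasm, and 84 of the 27672 genes in the RNA-seq table belong to this family. Members were taken by symbol: RPL or RPS followed by a number, with an optional A, X or L and a further number, plus RPLP0, RPLP1, RPLP2 and RPSA. Of these, 52 carry names of the large (60S) subunit and 32 names of the small (40S) subunit, and all 84 are annotated as protein-coding. H9 human embryonic stem cells (hESCs), an established line, were sampled undifferentiated on day 0 and as neuromesodermal progenitor-like (NMP-L) cells on day 3, with 3 biological replicates each and no further genetic change labelled in either group. Per the labels, hESCs were grown without feeders in DEF medium with bFGF at 30 ng/ml and Noggin at 10 ng/ml, and NMP-L cells were derived from them by 3 days in N2/B27 medium with bFGF at 20 ng/ml and the Wnt pathway activator CHIR99021 at 3 µM. Poly(A) RNA was sequenced, and the libraries held between 19454543 and 23036426 expected counts. These are bulk cultures of 1 line, in which a change in every cell and a change in the mix of cells cannot be told apart.

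Each ribosome needs 1 copy of nearly every RP, so cells make these proteins in near-equal amounts from some of the most abundant mRNAs they hold. RP mRNAs typically begin with a run of pyrimidines directly at the start of transcription, the 5′ terminal oligopyrimidine (TOP) tract, through which mTOR signalling and the RNA-binding protein LARP1 control their translation. A few members have a paralogue with L or L1 after the parent's symbol, and several of these paralogues are known for use in particular tissues. Most RP genes have left processed pseudogenes elsewhere in the genome, so that reads can match a gene and its copies alike.

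The tract is shown here because it is the sequence feature the family shares and the L-form genes mostly lack. The sequences run from 14 bases before to 16 bases from the annotated start of each MANE transcript on GRCh37 (GENCODE release 44), 5′ to 3′ along the transcribed strand. Capitals mark the longest run of at least 8 C or T within 10 bases either side of the start, and a run is cut where it leaves that span. The first pair is the parent and paralogue with the largest difference in response, followed by RPS27 and RPS27L, RPL39 and RPL39L, the leading other falls, and RPS18, which had the highest fold change of the family.
RPL22 (chr1:6259640-6259669, minus strand): agttcgctcaCCTCCCTTTCTaactccgct
RPL22L1 (chr3:170587969-170587998, minus strand): gcggccgtagCTTCCTCTCTgctctcgcgg
RPS27 (chr1:153963224-153963253, plus strand): tttccgctttcgCTCCTTTCCggcggtgac
RPS27L (chr15:63449661-63449690, minus strand): agttgatgccgagcgcagatcgcttgcagc
RPL39 (chrX:118925578-118925607, minus strand): tcttccgccagCTTCCCTCCTCTTcctttc
RPL39L (chr3:186857269-186857298, minus strand): catccggggaaatcgcggtcttagcatccg
RPL23A (chr17:27046989-27047018, plus strand): ccgtgggaacgagcattggagacccttttc
RPSA (chr3:39448197-39448226, plus strand): ttcctgccgcctgTCTTTTCCgtgctacct
RPL13A (chr19:49990851-49990880, plus strand): gacaaaaCCTCCTCCTTTTCCaagcggctg
RPS18 (chr6:33239838-33239867, plus strand): gcgtcacttccgCTCTCTCTTCCacaggag

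Within 10 bases either side of the start, such a run was present in 63 of the 84 members (75%), against 9.41% of 18922 MANE promoters and 3 of 78 mitochondrial RP genes. A run that goes past this span is cut, so that of RPL23A, which begins near its edge, was not counted. RPL22L1 holds a run of 10 bases, whereas RPS27L, RPL39L, RPL7L1, RPL26L1, RPL3L and RPL10L have no run of 8. Over the window from 250 bases before to 50 after the start, CCGGAAG on either strand was present in 30 members (35.7%, against 14.2% of all promoters) and AAGATGGC in 11 (13.1% against 4.11%). Both were more common in mitochondrial RP genes, with CCGGAAG in 32 of 78 and AAGATGGC in 22 of 78. TATAAA was as common in the family (9.52%) as in all promoters (9.44%), and CACGTG was present in 6 members (7.14% against 8.82%). These matches describe letters and not factor binding.

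RP transcripts formed a large and similar part of the transcriptome in both conditions. Together the members held 22.3%, 24.0% and 23.1% of all TPM, RSEM's measure of transcript abundance per length, in hESC replicates 1 to 3, and NMP-L (D3) replicates 1 to 3 had 23.7%, 23.5% and 21.6%. The group values of 23.1 ± 0.846% and 22.9 ± 1.16% (SD, n = 3 each) overlapped, and their difference of -0.203 percentage points was smaller than either SD. NMP-L replicate 3 had the lowest share, and without it the difference was 0.465 points. Since the members are short, they took a smaller part of the reads, 7.58 ± 0.501% of expected counts in hESCs and 7.40 ± 0.530% in NMP-L cells (SD, n = 3 each). Of the 100 genes with the highest mean TPM, 63 were members.

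Levels per length differed widely between members and little between conditions. Among the 77 tested members that are not L-forms, mean TPM in hESCs ran from 449.7 for RPL27A to 7294 for RPL41, which encodes the smallest RP, with a median of 2879. In NMP-L cells it ran from 381 for RPL27A to 7603 for RPS18, a protein of the head of the small subunit, with a median of 2736. RPL41 was measured at 7325, 7405 and 7150 TPM in hESCs and at 7209, 7028 and 6757 TPM in NMP-L cells. RPL37A, a large-subunit zinc-binding protein, was measured at 6041, 6724 and 6380 TPM in hESCs and at 6986, 6915 and 6068 TPM in NMP-L cells. In TPM the groups overlapped for both. On scaled counts every NMP-L library of RPL41 lay below every hESC library, while the groups of RPL37A overlapped. Neither gene passed the test (log2 fold change of scaled counts -0.15, adjusted p = 0.0842 for RPL41 and -0.03, adjusted p = 0.772 for RPL37A). At the other end stood the L-forms, all below 150 TPM in every library, while the median tested gene had a mean of 14.3 TPM. RSEM divides by an effective length, which for RPL27A and RPL13, the lowest of the 77 and named after their values were seen, was 1.52 and 1.45 times the library median in hESCs, and for RPL41 0.119 times.

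**Figure D1:**
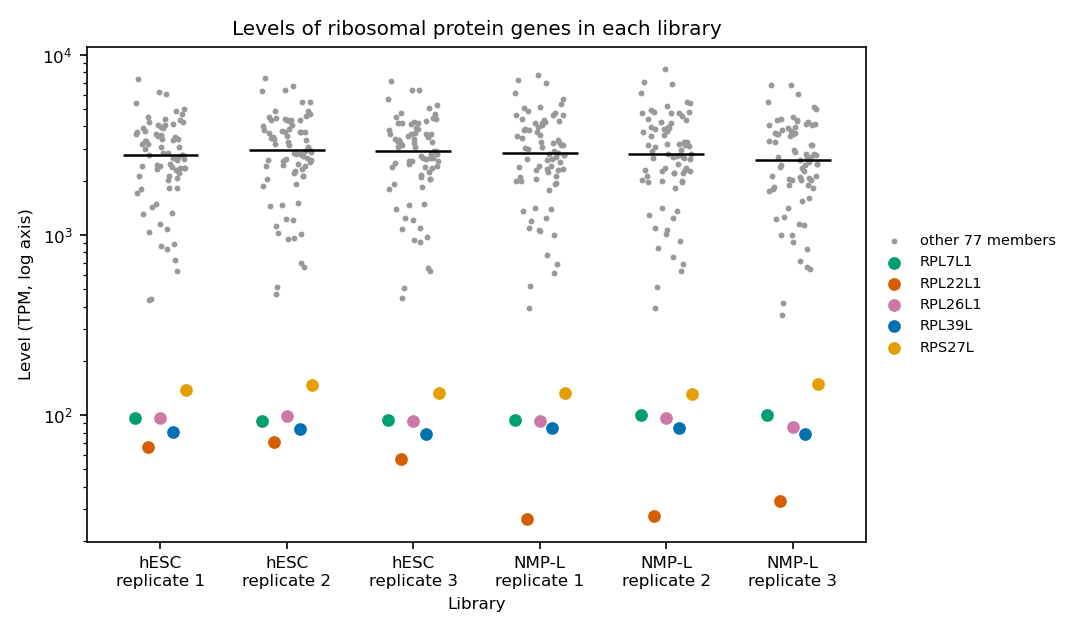
Level of each tested RP gene in TPM (log axis) in each of the 6 libraries, with the 5 tested L-form genes in colour, the other 77 members in grey and a black line at the median of the 77. The median line hardly moves between libraries, and of the coloured genes only RPL22L1 (dark orange) has its NMP-L libraries, from 26.5 to 33.2 TPM, clear of its hESC libraries, from 57.2 to 71.3 TPM.

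Between conditions the family moved little, and on the TMM scale, though not with GAPDH as the scale, its calls all lay in 1 direction. Of the 82 members that passed the filter on low counts, 22 were lower in NMP-L (D3) cells than in hESCs (26.8%, beside 26.7% of all 15517 tested genes), 0 were higher (beside 29.1% of all tested genes) and 60 did not pass the threshold, by edgeR's quasi-likelihood test on TMM-scaled counts at a Benjamini-Hochberg adjusted p of 0.05. The share lower is thus close to the background, and the family differs from it in having no call for a rise. At an unadjusted p under 0.05 the number higher was also 0, whereas limma on log2(TPM + 1) called 8 higher and DESeq2 0. The log2 fold change was negative for 70 members (85.4%), beside 48.0% of all tested genes.

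On the TMM scale the median log2 fold change was -0.12 over the members and 0.03 over all tested genes, a gap of -0.15, whereas with GAPDH counts as the scale the members' median was 0.43, with 74 of them higher (beside 64.6% of all tested genes) and 1 lower (beside 9.2%). GAPDH itself was lower in NMP-L cells on the TMM scale (log2 fold change -0.55, adjusted p = 1.4e-04), and this scaling moved the median of all genes by 0.56, and scaling to HPRT1 counts by -0.30. The gap between members and all genes does not depend on a common scaling factor, and lay between -0.21 and -0.09 over 21 alternative ways of processing. On the TMM scale, names of the small subunit had 12 of 32 tested members lower and a median of -0.17. Names of the large subunit had 10 of 50 lower and a median of -0.12. Of all tested genes 26.7% were lower, and the difference between the subunits was not tested.

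**Figure D2:**
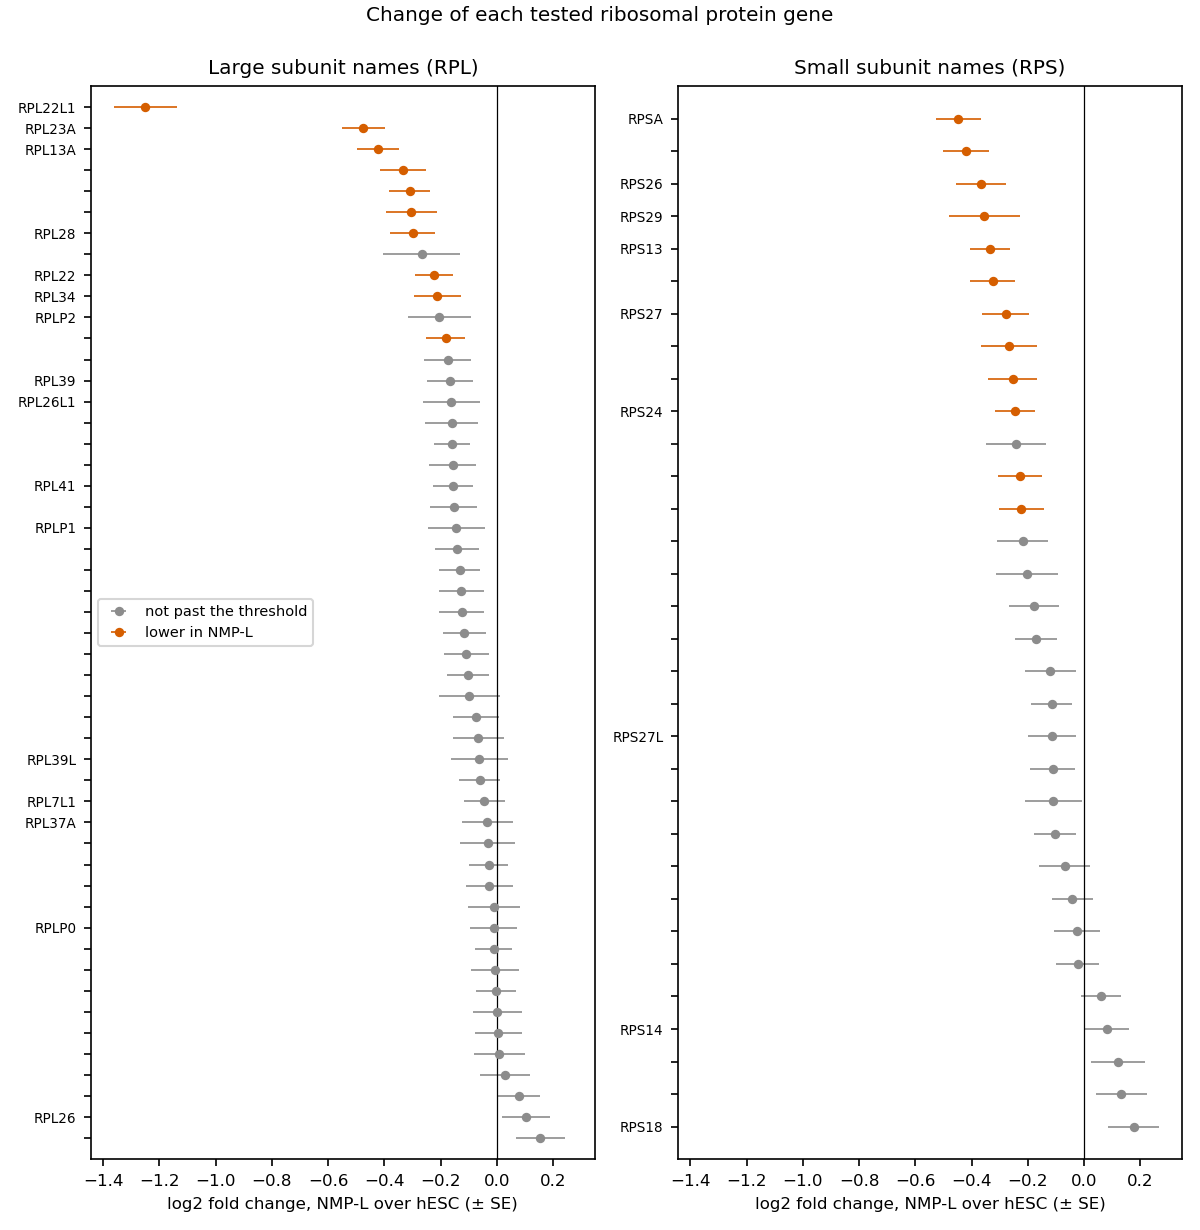
Log2 fold change (NMP-L over hESC, TMM-scaled counts, edgeR) of each tested RP gene with its standard error, for 50 large-subunit and 32 small-subunit names. Genes are ordered by fold change and some are labelled, and the 22 genes lower in NMP-L cells are in orange; RPL22L1 stands apart at -1.25 and the others lie between -0.47 and 0.18, and with GAPDH counts as the scale 74 of these genes were higher.

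Fold changes of the family were narrowly spread. All 81 tested members other than RPL22L1 lay within 1.5-fold of no change (98.8% of the 82), beside 64.4% of all tested genes. Some other parts of the translation machinery were close to this, with 96.2% of mitochondrial RP genes, 91.0% of ribosome biogenesis genes and 88.9% of translation factor genes within the same bound. The interquartile range of log2 fold changes was 0.194 over the members, 0.401, 0.347 and 0.301 over those 3 lists in turn and 0.790 over all tested genes, and the SD over the 81 members was 0.142, against 1.02 over all tested genes. All 16 genes of the mTOR and LARP1 axis also lay within the bound, with an interquartile range of 0.226. Of 11 non-coding host genes that share the TOP tract, 5 (45.5%) did, with an interquartile range of 0.732. The median standard error of a member was 0.0828 and that of any tested gene 0.124, so members were also measured more precisely. Called falls other than RPL22L1 were between 1.14-fold and 1.39-fold. At a 2-fold change only RPL22L1 was left, beside 9.18% of all tested genes that fell by at least that much.

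**Figure D3:**
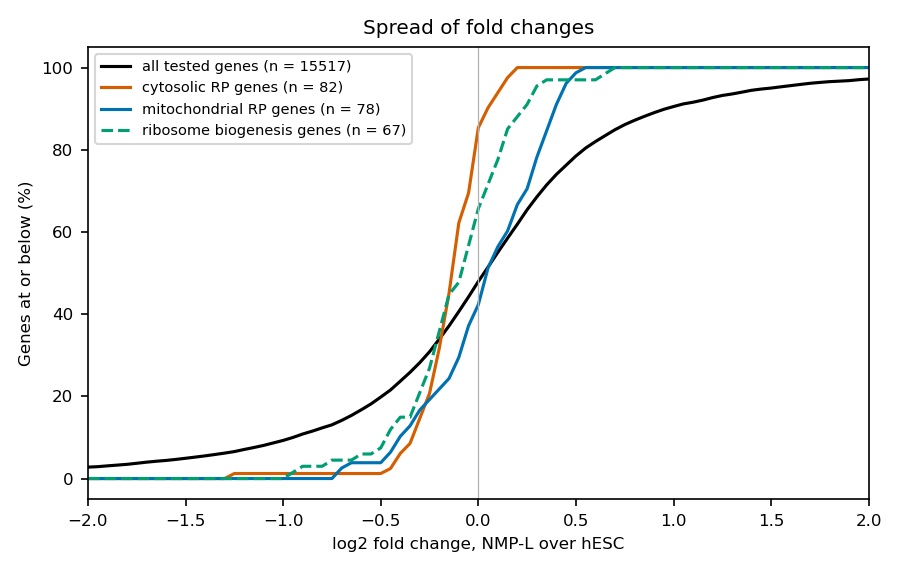
Cumulative share of genes (%) at or below each log2 fold change (NMP-L over hESC, TMM scale; the axis ends at -2 and 2) for cytosolic RP genes, mitochondrial RP genes, ribosome biogenesis genes and all tested genes. The curve of the 82 cytosolic RP genes is the steepest, crosses zero at 85.4% and shows 1 step at its left end, RPL22L1; relative to GAPDH counts the cytosolic RP curve would lie mostly to the right of zero.

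RPL22L1, the paralogue of the 60S protein RPL22 that can take its place in the large subunit, had by far the largest change of the family. The gene lies at chr3:170582664-170587997 on the minus strand of GRCh37. Its TMM-scaled level was 61.9, 68.5 and 53.8 CPM, the count scaled to library size, in the 3 hESC libraries and 24.0, 25.1 and 28.3 CPM in the 3 NMP-L libraries. Every NMP-L library was below every hESC library, and the gap between the groups was wider than either group's range. The fall was 2.38-fold (log2 fold change -1.25, standard error 0.11, adjusted p = 2.83e-06). It was past the threshold in all 20 alternative fits, with log2 fold changes from -1.55 to -0.69 and a largest adjusted p of 0.005, including the scaling to GAPDH counts. All counts of RPL22L1 were whole numbers.

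RPL22 itself, at chr1:6245080-6269449 on the minus strand, fell by much less. Its level was 709, 716 and 654 CPM in hESCs and 586, 602 and 594 CPM in NMP-L cells, again with no overlap (log2 fold change -0.22, standard error 0.07, adjusted p = 0.0157). This call was lost with library size only (adjusted p = 0.074), in limma on log2(TPM + 1) (0.092), with the replicate block (0.062) and without NMP-L replicate 1 (0.06). As a share of the TPM of both genes, RPL22L1 made up 8.49%, 9.23% and 8.02% in hESCs and 4.13%, 4.21% and 4.79% in NMP-L cells. The ratio of RPL22L1 to RPL22 within a library, which does not depend on scaling between libraries, was 2.05-fold lower in NMP-L cells (log2 difference -1.04). The two-sided exact permutation test gave p = 0.1, the smallest that 3 libraries against 3 allow, or 0.14 after Benjamini-Hochberg adjustment over 7 pairs.

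**Figure D4:**
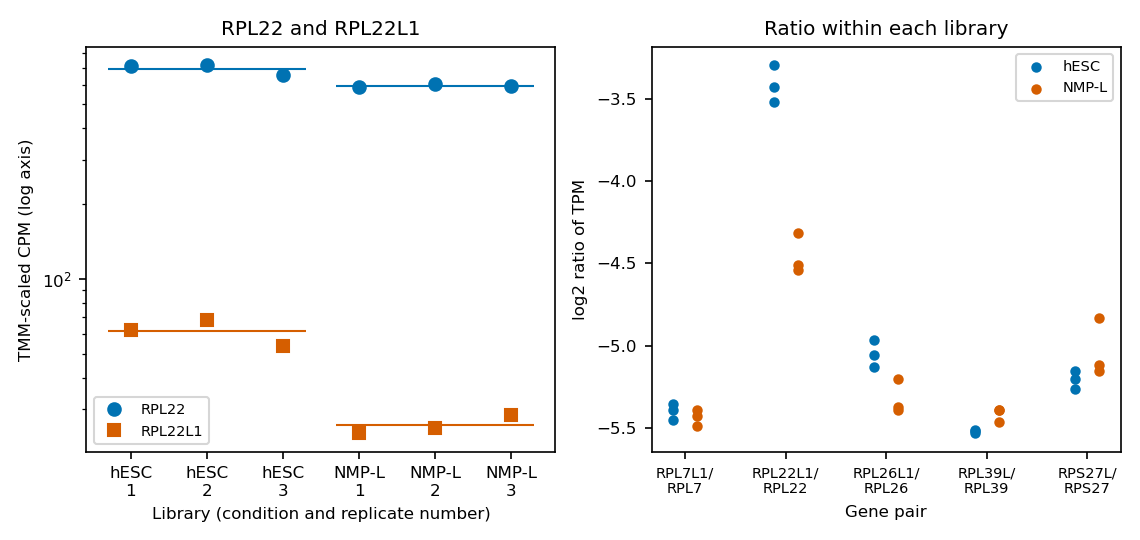
Left, TMM-scaled CPM (log axis) of RPL22 and RPL22L1 in each library, with a line at each group mean; right, the log2 ratio of the TPM of 5 L-form genes to that of their parents in each library, 3 points per condition. RPL22L1 over RPL22 falls from between -3.52 and -3.30 in hESCs to between -4.54 and -4.31 in NMP-L cells, while the other 4 ratios differ by at most 0.27 between the group means.

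None of the other 4 tested L-forms passed the test. RPL26L1 was measured at 29.7, 32.0 and 29.3 CPM in hESCs and at 27.9, 29.1 and 24.4 CPM in NMP-L cells (log2 fold change -0.16, adjusted p = 0.199). Its parent RPL26 was measured at 739, 886 and 770 CPM in hESCs and at 915, 847 and 812 CPM in NMP-L cells (0.10, adjusted p = 0.310). Since gene and parent leaned to opposite sides, the RPL26L1 to RPL26 ratio was lower in every NMP-L library than in every hESC library (log2 difference -0.27, two-sided exact permutation p = 0.1).

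RPS27L, known as a p53-induced form of the small-subunit protein RPS27, was measured at 67.0, 74.8 and 65.4 CPM in hESCs and at 63.1, 62.0 and 66.4 CPM in NMP-L cells, values that overlapped (log2 fold change -0.11, adjusted p = 0.285). RPS27 fell from 635, 733 and 668 CPM to 599, 574 and 504 CPM (-0.28, adjusted p = 0.0152). The RPS27L to RPS27 ratio was therefore higher in NMP-L cells (log2 difference 0.17, two-sided exact permutation p = 0.1). Without NMP-L replicate 3 this difference was 0.07. The nearest libraries of the conditions, at -5.154 and -5.152, almost met.

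RPL39L, known from testis and from tumours, was measured at 26.2, 28.1 and 25.7 CPM in hESCs and at 26.6, 26.7 and 23.4 CPM in NMP-L cells (log2 fold change -0.06, adjusted p = 0.625). Its parent RPL39, which lines the exit tunnel, had a log2 fold change of -0.17 (adjusted p = 0.0993), and their ratio was higher in NMP-L cells by 0.11 (two-sided exact permutation p = 0.1). Counts of both genes have fractions, so this ratio rests in part on how RSEM divided shared reads. RPL7L1 was measured between 176 and 178 CPM in hESCs and between 168 and 179 CPM in NMP-L cells (log2 fold change -0.04, adjusted p = 0.619), and its ratio to RPL7 overlapped between conditions (log2 difference -0.04, two-sided exact permutation p = 0.4). The L-forms known from muscle and testis were barely detected. RPL3L, a heart and skeletal muscle form of RPL3, had 4, 8 and 3 counts in hESCs and 0 in every NMP-L library. RPL10L, a testis form of RPL10 without introns, had 2, 0 and 3 counts in hESCs and 0 in NMP-L cells. No fold is given for either gene at this depth. These 2 members were not tested. Parents RPL3 (-0.07, adjusted p = 0.473), RPL7 (-0.01, adjusted p = 0.901) and RPL10 (0.03, adjusted p = 0.806) did not pass the test.

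Among large-subunit names, RPL23A had the largest fall after RPL22L1. This protein sits at the exit of the ribosome's tunnel, where nascent chains meet the signal recognition particle, and its gene lies at chr17:27047003-27051377 on the plus strand. Levels were 1036, 1172 and 1100 CPM in hESCs and 834, 820 and 727 CPM in NMP-L cells, with no overlap (1.39-fold lower, log2 fold change -0.47, standard error 0.08, adjusted p = 3.3e-04). RPL13A, a 60S protein also known as a translational repressor outside the ribosome, was measured at 1302, 1361 and 1386 CPM in hESCs and at 1063, 1040 and 919 CPM in NMP-L cells (log2 fold change -0.42, standard error 0.07, adjusted p = 5.15e-04). RPL28 fell from 585, 661 and 636 CPM to 547, 507 and 475 CPM (-0.30, adjusted p = 0.00698). RPL34 was the called member nearest to the threshold (-0.21, adjusted p = 0.0495) and RPL15 the nearest one outside it (-0.16, adjusted p = 0.0528). RPL27A, RPL23 and RPL5 were also lower in NMP-L cells, with log2 fold changes between -0.33 and -0.18.

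Among small-subunit names the largest fall was that of RPSA, a 40S protein also known as the laminin receptor, whose gene lies at chr3:39448207-39467746 on the plus strand. Levels were 1685, 1868 and 1763 CPM in hESCs and 1358, 1382 and 1159 CPM in NMP-L cells, with no overlap (1.36-fold lower, log2 fold change -0.45, standard error 0.08, adjusted p = 6.54e-04). RPS13, which lies on the interface between the subunits, was measured at 491, 512 and 482 CPM in hESCs and at 398, 409 and 371 CPM in NMP-L cells (-0.34, adjusted p = 0.00175). For RPS13, the highest NMP-L library stayed below the lowest hESC library.

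RPS26, at the mRNA exit channel, was measured at 240, 290 and 266 CPM in hESCs and at 216, 212 and 190 CPM in NMP-L cells (-0.37, adjusted p = 0.00432). RPS29 was measured at 298, 352 and 345 CPM in hESCs and at 297, 278 and 204 CPM in NMP-L cells. Here the nearest libraries almost met, and NMP-L replicate 3 was the lowest (-0.35, standard error 0.12, adjusted p = 0.0307). The call was lost in limma on log2(TPM + 1) (-0.21, adjusted p = 0.153), with library size only (0.073) and without NMP-L replicate 3, hESC replicate 2 or hESC replicate 3 (adjusted p = 0.086, 0.078 and 0.088). RPS24, a gene mutated in Diamond-Blackfan anaemia, fell from 1140, 1239 and 1131 CPM to 1000, 1021 and 939 CPM (-0.25, adjusted p = 0.0108). RPS25, RPS27, RPS28, RPS3, RPS15A and RPS27A were also lower, with log2 fold changes between -0.33 and -0.22. RPS29, RPL28, RPL34, RPS24 and RPL22L1 were among the members whose effective length as given by the files differed most between conditions, yet over the 82 members this shift lay between -0.056 (RPS29) and 0.017 on the log2 scale.

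The ribosomal stalk, which recruits the translation factors that hydrolyse GTP, was not called. RPLP0, the base of the stalk, was measured at 2254, 2491 and 2392 CPM in hESCs and at 2474, 2533 and 2073 CPM in NMP-L cells (log2 fold change -0.01, adjusted p = 0.919). RPLP1 (-0.14, adjusted p = 0.25) and RPLP2 (-0.20, adjusted p = 0.140) did not pass the test either, and in all 3 genes the libraries of the conditions overlapped. The highest fold change of the family was that of RPS18, with 1367, 1449 and 1415 CPM in hESCs and 1645, 1768 and 1371 CPM in NMP-L cells. Its NMP-L replicate 3 lay among the hESC libraries, and it did not pass the test (0.18, standard error 0.09, adjusted p = 0.113).

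Libraries shifted the family as a whole by about as much as conditions did. The median member, relative to its mean over all 6 libraries, stood at log2 values of -0.01, 0.15 and 0.05 in hESC replicates 1 to 3, against 0.01, 0.01 and -0.20 in the NMP-L replicates. hESC replicate 2 was thus the highest and NMP-L replicate 3 the lowest. On CPM, 28 of the 82 members were lower in every NMP-L library than in every hESC library (beside 29.5% of all tested genes), 0 were higher in every one (beside 32.1%) and 54 overlapped, and all 22 called members were among the 28. Without NMP-L replicate 3 the count was 14 lower (beside 24.0% of all genes tested in that fit) and 4 higher (beside 26.6%), namely RPS18, RPL8, RPS4X and RPS12, named after their values were seen. Without hESC replicate 2 it was 15 lower (beside 24.8%), without hESC replicate 3 16 lower (beside 22.6%), and without hESC replicate 1 38 lower (beside 27.5%). In the full fit and all 6 fits without a library, 13 members were lower, among them RPL13A, RPL22L1, RPL23, RPL23A, RPL27A, RPL28, RPS13, RPS24, RPS25, RPS26 and RPSA. The share of all tested genes lower in all these fits was not counted, so the 13 have no background to be read against.

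A test on TPM, to which no TMM factor was applied, drew the line elsewhere. There the median log2 fold change of all tested genes was 0.11, beside 0.03 on the TMM scale. On log2(TPM + 1), where values add up to a fixed total in each library, limma called 14 members lower (beside 22.0% of all tested genes), all among the 22, and 8 higher (beside 34.3%). The 8 were RPS18, RPL8, RPS4X, RPS12, RPL26, RPS14, RPL24 and RPS6, the protein phosphorylated by S6 kinase. RPS14 was measured at 3310, 3461 and 3287 TPM in hESCs and at 3821, 3974 and 3615 TPM in NMP-L cells, without overlap, whereas on the TMM scale its log2 fold change of 0.08 had an adjusted p of 0.387. Other scales moved the counts too. With library size only, 2 members were higher and 13 lower (beside 34.2% and 23.2% of all tested genes), and after each library was adjusted for the GC content and length of transcripts, a step added after the data were seen, 5 were higher and 42 lower (beside 33.4% and 31.9%). The direction of a member near the middle of the family therefore rests on the scaling, and RPL22L1, RPL23A, RPSA and RPL13A were lower in both tests.

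**Figure D5:**
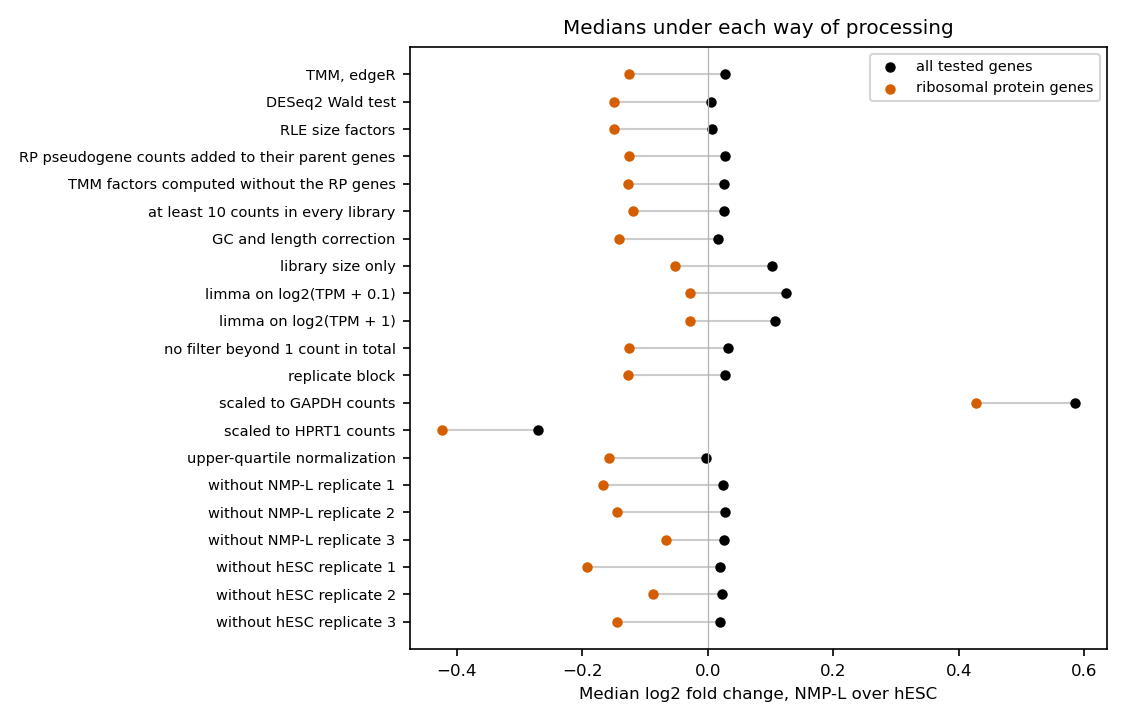
Median log2 fold change (NMP-L over hESC) of the tested RP genes (orange) and of all tested genes (black) under each way of processing. Orange lies left of black in every line, by 0.09 to 0.21, while the position of both against zero moves with the scaling, to 0.43 for the RP genes relative to GAPDH counts and to -0.42 relative to HPRT1 counts.

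Reads divided between genes touched 16 of the 84 members (19.0%), which have a fractional expected count (over 0.005 from a whole number) in some library, beside 8.44% of all genes in the table and 11.2% of tested genes. Their values depend on how RSEM divided such reads, and which genes shared them was not tested. RPL7L1, RPL36A, RPL17, RPL39 and RPL39L are among the 16 but none of the 31 RP pseudogene rows described next is theirs. The fractional parts of RPL39 and RPL39L add up to nearly a whole number in every library, as where a pair of genes divides reads. In hESC replicate 1, for example, their counts were 11042.82 and 490.17. Among the 16, 6 were lower and the median log2 fold change was -0.14 (beside 26.7% of all tested genes lower), and among the 66 tested members with whole counts 16 were lower and the median was -0.12. Fractions were largest in RPL7L1, RPL36A, RPL21, RPL13A and RPS14. RPL36A had a log2 fold change of 0.01 (adjusted p = 0.957).

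Of the 31 RP pseudogene rows 12 were tested, of which 2 were lower (beside 26.7% of all tested genes) and 0 higher (beside 29.1%). Together the 31 made up 0.629 ± 0.0678% of TPM in hESCs and 0.629 ± 0.0564% in NMP-L cells (SD, n = 3 each). Most of this was RPL13AP5, whose mean level of 3937 TPM exceeded that of its parent RPL13A, 2228 TPM, and RPL21P28, whose 1985 TPM exceeded the 1167 TPM of RPL21. The lower rows were RPSAP58 (-0.29, adjusted p = 0.041) and RPL13P5 (-0.52, adjusted p = 0.042), named after their values were seen, and RPL13AP5 did not pass the test (-0.06, adjusted p = 0.64).

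With pseudogene counts added to each parent, a step added after the data were seen, the family count stayed at 22 lower and 0 higher. RPL13A with its 5 pseudogene rows was measured at 2287, 2588 and 2469 CPM in hESCs and at 2190, 2148 and 1852 CPM in NMP-L cells, and its log2 fold change went from -0.42 to -0.25 (adjusted p = 0.0219). RPSA with 3 rows changed little (-0.43, adjusted p = 0.00102). RPL21 alone was measured at 332, 247 and 293 CPM in hESCs and at 268, 190 and 266 CPM in NMP-L cells, one of the widest spreads among replicates (-0.27, standard error 0.14, adjusted p = 0.117). Summed with 2 pseudogene rows it came to 742, 815 and 732 CPM and to 686, 704 and 620 CPM, so that the groups no longer overlapped (-0.19, standard error 0.08, adjusted p = 0.0549).

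Members were also counted by whether a tract lay at their start. With a run of at least 8 C or T, 20 of 63 tested members were lower (beside 26.7% of all tested genes) and the median log2 fold change was -0.14, and without one 2 of 19 were lower and the median was -0.10. RPL23A, whose start is shown above, was counted among those without one, because its run of C and T leaves the searched span and was cut. The runs of RPL4, RPL9 and RPS15 were cut in the same way. The split therefore depends on the annotated start and does not show that a tract is absent. No test was made of this split, in which most L-forms fall on the side without a tract.

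A further 4 ribosomal protein genes have symbols outside the rule. RACK1, a scaffold on the 40S head, was measured at 1541, 1788 and 1662 CPM in hESCs and at 1423, 1421 and 1190 CPM in NMP-L cells (-0.31, adjusted p = 0.0103). RPL36AL, a paralogue of RPL36A (-0.30, adjusted p = 0.00649), was also lower, while FAU, the precursor of RPS30, did not pass the test (0.01, adjusted p = 0.972). Thus 3 of these 4 genes were lower on the TMM scale (beside 26.7% of all tested genes), and all 4 were higher relative to GAPDH counts (beside 64.6%).

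Calls in other parts of the translation machinery are read here against the 29.1% of all tested genes higher and 26.7% lower on the TMM scale, and the 64.6% and 9.2% with GAPDH as the scale. Of 78 mitochondrial RP genes, 19 (24.4%) were higher and 16 (20.5%) lower, both below that background (median log2 fold change 0.05), with MRPL35 (0.52) and MRPL57 (-0.71) at the ends, but with GAPDH as the scale 64 rose and 0 fell. Of 67 ribosome biogenesis genes, 7 (10.4%) were higher and 22 (32.8%) lower (median -0.08), or 52 and 2 relative to GAPDH counts. SBDS, which acts in the last steps of 60S maturation, rose most (0.66, adjusted p = 4.43e-04) and MDN1, an ATPase that strips assembly factors from 60S precursors, fell most (-0.96, adjusted p = 5.05e-06). Of 45 translation factor genes, 7 (15.6%) were higher and 12 (26.7%) lower (median -0.08), or 36 and 1 relative to GAPDH counts, from EIF1, a start-codon selection factor (0.64, adjusted p = 4.69e-05), to EEF1A2, the tissue-restricted form of elongation factor 1A (-0.98, adjusted p = 2.69e-05).

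Non-coding host genes that share the TOP tract with RP genes had more rises than falls on the TMM scale. Of 11, 6 were higher and 2 lower (median 0.32), or 3 and 2 relative to HPRT1 counts, a scale on which 7087 of 15517 tested genes were called in either direction. The shares of all tested genes higher and lower on the HPRT1 scale were not counted. ZFAS1 rose most, from 109, 111 and 110 CPM in hESCs to 235, 263 and 202 CPM in NMP-L cells (1.08, adjusted p = 2.59e-06), while SNHG12 fell most (-0.90, adjusted p = 3.32e-04). Among 16 genes of the mTOR and LARP1 axis, 1 was higher, RHEB, the GTPase that activates mTOR complex 1 (0.30, adjusted p = 0.0141), or 13 relative to GAPDH counts. On the TMM scale 3 were lower: EEF2K, which inhibits elongation factor 2 (-0.58, adjusted p = 1.39e-04), and, named after their values were seen, LARP1 (-0.31, adjusted p = 0.00249) and MTOR (-0.29, adjusted p = 0.00504).

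The labelled cell states were checked on their markers. Of 7 hESC markers 6 were lower in NMP-L cells and 0 higher, with NANOG between 86.4 and 97.8 CPM in hESCs and between 15.3 and 15.8 CPM in NMP-L cells. Of 8 NMP-L markers, 7 of them tested, 6 were higher, with T between 293 and 629 counts in NMP-L libraries and at most 2 counts in an hESC library. Of 13 markers of mesoderm, endoderm, neural progenitors and neural crest, 2 were higher and 3 lower, their summed level was between 34.7 and 41.6 CPM in hESCs and between 31.7 and 45.0 CPM in NMP-L cells, and MEOX1, SOX17 and PAX3 were at or under 3 counts in every library. Within that sum FOXA2, a gene of endoderm and axial midline named after its values were seen, had 0, 5 and 2 counts in hESC replicates and 473, 264 and 535 counts in NMP-L replicates. The part of such cells in the RP values was not tested.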

How the data were processed

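Single-end reads of 76 bases were processed by the authors, whose submission notes name cutadapt 1.9.1, STAR 2.5.2a, RSEM 1.3.0, DESeq2 1.12.3 and the hg19 build. The deposited table gives expected counts per gene, not normalized between libraries, and TPM values, which RSEM scales by effective length. Annotation and strand setting are not given in the sources used here. Counts were rounded and tested in R 4.3.3 with edgeR 4.0.16 (filterByExpr with a minimum count of 10, TMM, glmQLFit and glmQLFTest over 15517 genes, Benjamini-Hochberg adjustment, threshold 0.05). Alternatives used DESeq2 1.42.0 and limma 3.58.1. Paralogue ratios used TPM + 0.01 and exact permutation tests in scipy 1.17.1. Pipelines were tested on simulated data. Replicate numbers are not stated to pair libraries, and the number of libraries limits precision. The labels call the libraries biological replicates without saying how the cultures were separated, and p-values measure the spread between these libraries of 1 line. No 2 libraries agreed within sampling noise.

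Members and gene lists were chosen with earlier results of these data known. Named members are both genes of each L-form pair, RPSA, the stalk, the 8 largest falls past the threshold, the 3 highest and 3 lowest tested mean TPM, and the 5 with the largest fractions and the 5 with the largest shift in effective length. Some results are not reported here. Further members are named to complete a count. Of other lists, the largest rise and fall are named. All 84 members matched GENCODE release 44.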

Additional observations from a re-analysis of the deposited data

How the results depend on the processing

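Direction against hESCs depended on the scaling. With GAPDH counts as the scale, the median of all genes shifted by 0.56. Then 74 members were higher and 1 lower with a median of 0.43, beside 64.6% higher and 9.2% lower of all tested genes. Relative to HPRT1 counts, a shift of -0.30, 34 were lower with a median of -0.42. On that scale 7087 of 15517 tested genes were called in either direction. The share of them lower was not counted, so the 34 have no background to be read against. Relative to GAPDH counts these log2 fold changes turned positive: RPL3 0.48, RPL7L1 0.51, RPL7 0.55, RPL22 0.34, RPL26L1 0.39, RPL39L 0.49, RPL39 0.39, RPS27L 0.45, RPS27 0.27, RPSA 0.10, RPLP0 0.54, RPLP1 0.41, RPLP2 0.34, RPL23A 0.08, RPL13A 0.13, RPS26 0.19, RPS29 0.19, RPS13 0.22, RPL41 0.40, RPL37A 0.52, RPL28 0.26, RPL34 0.34 and RPS24 0.31. Members higher and lower numbered 2 and 13 with library size only, 8 and 14 with limma on log2(TPM + 1) and on log2(TPM + 0.1), 5 and 42 after the adjustment for GC content and length (added after the data were seen), and 4 and 36 with this adjustment and the replicate block. In that last fit 9073 of 14465 genes were called in either direction. Leaving out 1 library gave 0 to 4 higher and 14 to 38 lower. The replicate block alone gave 0 and 17, with 7560 of 15517 tested genes called in either direction. For neither fit with the replicate block were the shares of all genes higher and lower counted. Same-numbered libraries deviated from their group means with correlations of -0.322, -0.0686 and -0.12. Deviations from a mean of 3 libraries depend on each other, so these values cannot show whether the numbers pair libraries. Counts of calls in either direction moved to 64 (GAPDH), 18 (HPRT1) and 23 (without hESC replicate 3) to 34 without 1 library for mitochondrial RP genes. For biogenesis genes they moved to 54 (GAPDH), 14 (replicate block) and 17 (without hESC replicate 3 or NMP-L replicate 2) to 30 without 1 library, for translation factors to 37 (GAPDH), for TOP host genes to 5 (HPRT1) and for the mTOR axis to 13 (GAPDH). The cause was not tested. Apart from the single-gene scalings and the adjustment combined with the replicate block, 12 members were lower in every fit, among them RPL13A, RPL22L1, RPL23, RPL23A, RPL27A, RPL28, RPS13, RPS24, RPS25, RPS26 and RPSA. The share of all tested genes lower in every such fit was not counted. A total without mitochondrially encoded genes was not run, since 0 genes of the table carry an MT- name. Exact tests of 3 libraries against 3 cannot go below 0.1.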
